A study of Mus musculus with 6 samples.

Results

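Matrix metalloproteases (MMPs), ADAMTS proteases, ADAMTS-like proteins and the tissue inhibitors of metalloproteases (TIMPs) were examined in cultured mesenchymal cells of the mouse small intestine. Members were taken by gene symbol alone, which gave 51 of the 23329 genes in the tables: 23 MMP, 4 TIMP, 19 ADAMTS and 5 ADAMTS-like genes. The RNA came from 3 primary cultures of E14.5 embryos (embryonic day 14.5) and 3 of adult mice, all of strain C57, numbered 1 to 3 at each stage (replicates in the plots), and the stages were compared. Per the labels' protocols, villi were scraped from the adult intestine, the intestine of embryos was cut into pieces, and both were stripped of epithelium with EDTA and DTT and digested with Collagenase XI and Dispase II. All cultures grew in RPMI medium with fetal bovine serum, glutamine, HEPES, pyruvate, penicillin, streptomycin, β-mercaptoethanol and Y27632, and RNA was taken at passage 2 to 3. The labels give no adult age and do not say whether cultures came from separate animals, so p-values measure the spread between these cultures, which may be technical.

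MMPs are zinc proteases that cut collagens, elastin, proteoglycans and other matrix or cell-surface proteins, and most are made as inactive proenzymes. TIMPs block their active sites, and TIMP3, which binds to the matrix, also blocks several ADAM and ADAMTS proteases. ADAMTS proteases are secreted enzymes that trim procollagens, cleave large proteoglycans such as versican, or act on other matrix proteins, and ADAMTS-like proteins share their ancillary domains but have no protease domain. In the gut wall these genes are made by cells that include fibroblasts, muscle cells and, for some MMPs, macrophages and other leukocytes.

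Counts assigned to genes ranged from 18850224 in adult culture 2 to 32672370 in embryonic culture 1. Markers of fibroblasts summed to 12491 to 24571 CPM (counts over a library total common to all libraries after TMM scaling) and those of smooth muscle to 18745 to 36304 CPM. Col1a1 had the highest level of the 9 fibroblast markers in every library, so their sum can hide a change in weaker ones. Pdgfra ranged from 2.47 to 4.45 CPM across embryonic cultures, whereas adult cultures held 29.5 to 81.0 CPM. It was the only fibroblast marker that edgeR called, as given with Adamtsl3 below. Epithelial markers, 8 in all, together had 25.4 to 61.9 CPM in embryonic cultures against 10.4 to 14.7 CPM in adult ones, most of it from Krt20 (24.4 to 61.4 and 9.09 to 13.7 CPM), while Epcam and Cdh1 stayed under 1 CPM and Fabp2 was at 0. The 15 macrophage and leukocyte markers with a row had a joint level of 265, 490 and 3052 CPM in embryonic cultures 1 to 3 and of 203, 26.0 and 52.8 CPM in adult cultures 1 to 3. None of the 15 was at 0 in all libraries, and Csf1r, the receptor that defines macrophages, ranged from 2.19 to 295 CPM. Endothelial markers, 12 in all, reached 1939 CPM together in adult culture 2 and 429 CPM in adult culture 3, with 15.4 to 42.2 CPM elsewhere. In bulk RNA, fewer cells of a type and less RNA per cell cannot be told apart.

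10 MMP genes of the list lie side by side on chromosome 9. Promoters from this cluster are shown because 8 of the 10 genes carry a motif found in none of the other members whose promoter was available here. RefSeq (GRCm38.p6) gave a promoter for 36 of the 51 members. The motif TGANTCA, where N is any base, is a loose form of the site of the AP-1 factors FOS and JUN. This motif was searched on both strands of the 250 bases before each start, and it reads alike on both. It was present for 8 of the 10 cluster genes, for 0 of the 26 other members with a promoter, and in 6.75% of 32851 mouse promoters. The match of Mmp20 was TGAATCA, and the other matches of the cluster had C or G in the middle. The sequence TATAAA, searched on both strands, was present for 7 of the 10 and for 3 of the 26, against 12.4% of all promoters. The last 100 bases before the start are given 5′ to 3′ on the gene's strand, with TGANTCA in capitals, for 5 of the cluster genes with counts in these libraries. Mmp27, Mmp1b and Mmp20 had fewer counts and are not printed. RefSeq lists a pair of starts for Mmp12, and the motif precedes only the inner one. A match is a description of letters and not of binding.
Mmp13 (chr9:7272414-7272513, plus strand): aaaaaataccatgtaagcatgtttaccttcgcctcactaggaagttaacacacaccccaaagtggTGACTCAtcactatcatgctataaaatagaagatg
Mmp12, outer start (chr9:7344297-7344396, plus strand): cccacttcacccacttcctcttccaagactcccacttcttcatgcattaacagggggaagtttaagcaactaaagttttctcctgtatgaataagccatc
Mmp12, inner start (chr9:7347274-7347373, plus strand): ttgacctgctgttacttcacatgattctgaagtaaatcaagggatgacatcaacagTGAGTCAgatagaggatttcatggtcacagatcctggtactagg
Mmp3 (chr9:7445722-7445821, plus strand): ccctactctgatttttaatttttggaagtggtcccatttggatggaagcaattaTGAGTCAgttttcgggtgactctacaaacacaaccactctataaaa
Mmp10 (chr9:7502242-7502341, plus strand): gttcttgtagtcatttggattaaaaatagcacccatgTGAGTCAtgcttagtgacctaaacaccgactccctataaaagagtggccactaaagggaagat
Mmp8 (chr9:7558329-7558428, plus strand): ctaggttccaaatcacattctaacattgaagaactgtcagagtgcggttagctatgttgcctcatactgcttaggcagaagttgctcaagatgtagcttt

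Of the 51 members, 36 had enough counts to be tested with the 13478 genes of the series, and 15 did not. By edgeR's quasi-likelihood test at a Benjamini-Hochberg adjusted p of 0.05, Mmp12 rose and Adamtsl3 fell in E14.5 cultures, and the other 34 did not pass. These 2 calls are 5.56% of the tested members, where 1.08% of all genes tested were called (146 genes, 33 higher and 113 lower). DESeq2 called 9 of the 36 (25%, against 10.6% of all genes), 4 higher and 5 lower, and limma-voom called Mmp12 alone (1.02% of all genes). The groups did not overlap for 12 members (33.3%, against 24.1% of all genes), 5 of them higher and 7 lower in E14.5. The 5 were Mmp12, Mmp9, Mmp15, Adamts8 and Adamts9, and the 7 were Mmp11, Mmp19, Timp3, Adamts4, Adamtsl2, Adamtsl3 and Adamtsl4.

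The family had no common direction. The log2 fold change, E14.5 over adult, was positive for 16 tested members and negative for 20. Its median was -0.14, against 0.01 over all genes tested. The median was -0.16 and -0.04 when embryonic culture 1 or 3 was dropped, with 38 and 37 members tested. It was 0.21 without embryonic culture 2 and 0.12, 0.13 and 0.12 without adult culture 1, 2 or 3, with 40 to 42 members tested. The part of the added members in these medians was not tested. The median size of a member's log2 difference, without its sign, was 0.84, against 0.23 over all genes. Between cultures of one stage, the members' median SD of log2(CPM + 1) was 0.588 in embryonic cultures and 0.415 in adults, against 0.253 and 0.167 over all genes tested.

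**Figure D1:**
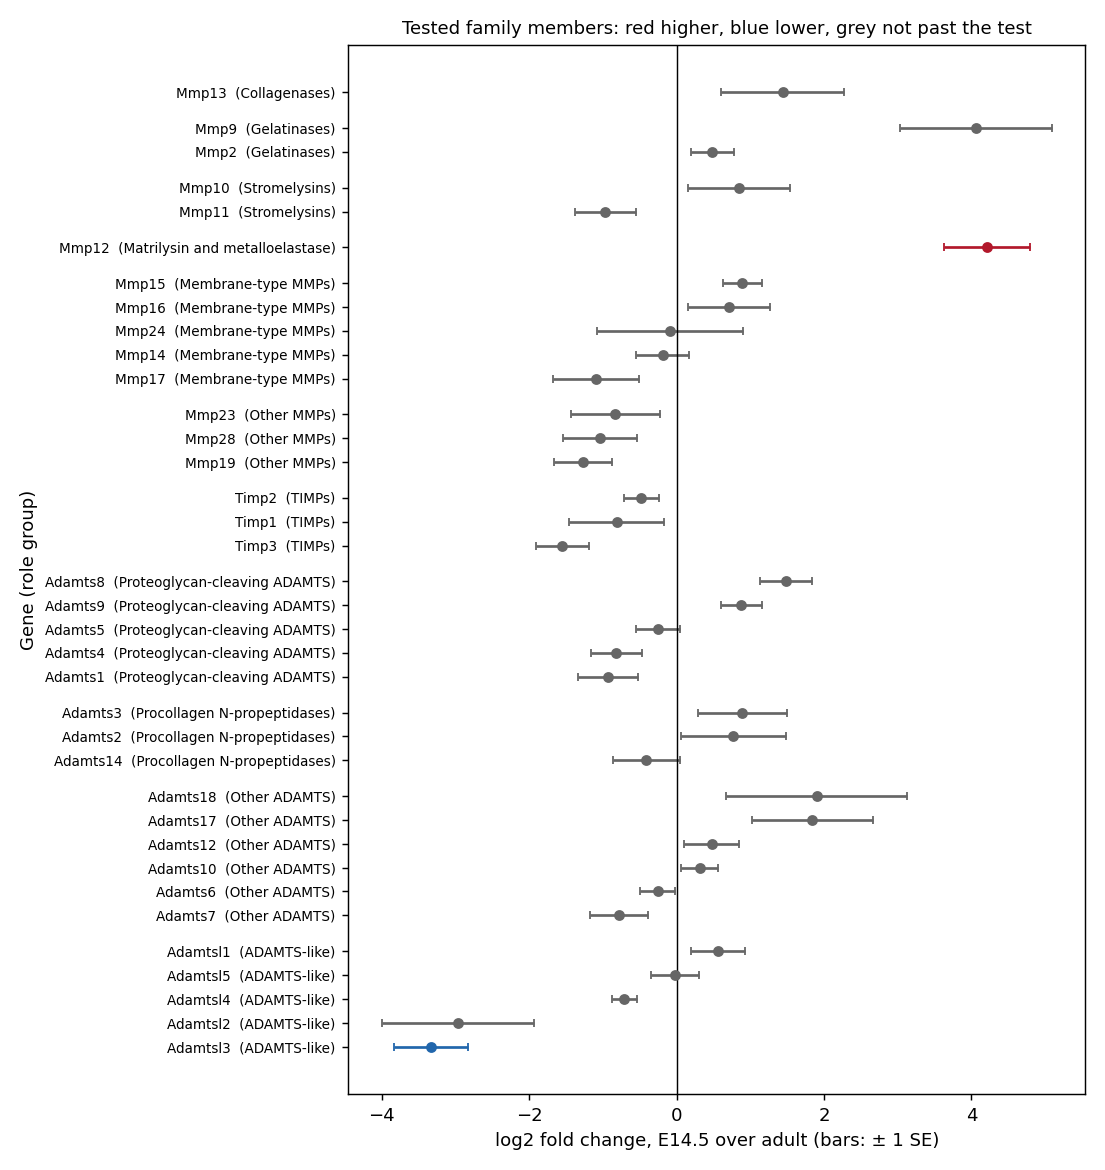
Each point is the log2 fold change of 1 tested member, E14.5 over adult, on the x axis, with bars of 1 standard error, and the y axis lists the genes by role group. Mmp12 at 4.21 (red) and Adamtsl3 at -3.33 (blue) passed the test, and the grey members lie on both sides of 0.

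Mmp12 encodes macrophage metalloelastase, which cleaves elastin. It measured 9.41, 14.3 and 17.9 CPM in embryonic cultures 1 to 3 (301, 460 and 580 counts) and 1.36, 0.397 and 0.457 CPM in adult cultures 1 to 3 (36, 8 and 13 counts). Every E14.5 library lay above every adult library, and adult culture 1 was the highest of its group. The means were 13.9 ± 4.27 and 0.739 ± 0.541 CPM (SD, n = 3 each), an 18.5-fold difference. By edgeR it had a log2 fold change of 4.21 (SE 0.58, adjusted p = 0.039). The gene lies on chromosome 9 of GRCm38 from 7344381 to 7369499 on the plus strand and shares 157 exonic bases with Mmp1b on the other strand, which had at most 2 counts in a library. Each title prefix, of unexplained meaning, is carried by 1 library of each stage, and within prefixes the log2 difference was 2.79, 5.17 and 5.29. By edgeR, adjusted p rose to 0.115 and 0.067 when embryonic culture 1 or 3 was dropped, and to 0.090 and 0.190 when adult culture 2 or 3 was dropped.

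Macrophage and leukocyte markers moved with Mmp12 across the libraries. In both measures embryonic culture 3 was highest and adult culture 2 lowest. The steps were unequal: embryonic culture 1 and adult culture 1 had marker sums of 265 and 203 CPM beside Mmp12 levels of 9.41 and 1.36 CPM. Lyz2, the only marker of the list that overlapped between stages, held 42.5 and 98.7 CPM of these sums. Without Lyz2 the sums would lie farther apart. Without embryonic culture 3, the library with the highest marker sum, the log2 fold change of Mmp12 was 3.98. The part of these cells in the result was not tested.

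**Figure D2:**
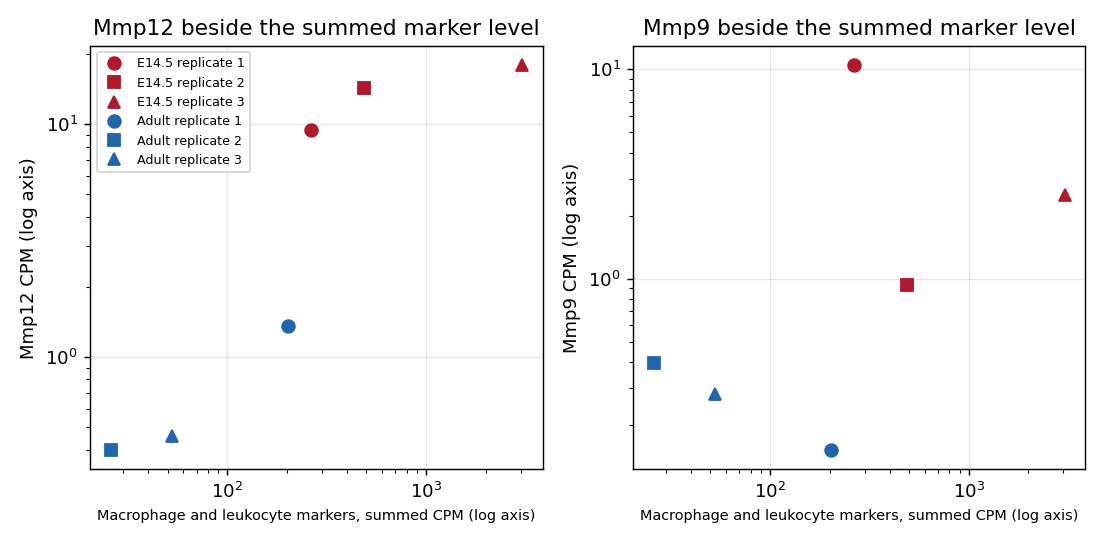
The level of Mmp12 (left) and Mmp9 (right) in CPM is plotted against the summed CPM of 15 macrophage and leukocyte markers, 1 symbol per library, with log axes. Mmp12 is highest in embryonic culture 3, which has the highest marker sum (3052 CPM), whereas Mmp9 is highest in embryonic culture 1 (265 CPM).

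No other gene of the chromosome 9 cluster passed the test. Mmp13, an interstitial collagenase, measured 0.688, 1.68 and 3.89 CPM in embryonic cultures and 0.530, 1.49 and 0.316 CPM in adult libraries, so the groups overlapped (log2 fold change 1.44, SE 0.83, adjusted p = 0.45, edgeR). Mmp10, stromelysin 2, measured 10.9, 2.17 and 4.11 CPM in embryonic cultures and 3.33, 4.72 and 1.51 CPM in adults, again overlapping (log2 fold change 0.84, SE 0.69, adjusted p = 0.614, edgeR). Without embryonic culture 1, the value of Mmp10 was -0.03. Mmp3, stromelysin 1, lay the other way, with 1, 3 and 0 counts in embryonic cultures and 19, 98 and 7 counts in adult libraries. It was too low to be tested, and in a fit without a filter edgeR gave it a log2 fold change of -5.39 (SE 1.47) and an adjusted p of 0.154. Adult culture 2 held most of its counts. Mmp8, the neutrophil collagenase, had 1 to 19 counts per library, and the neutrophil markers with a row summed to at most 0.546 CPM. Mmp1a and Mmp7 had no count in any library, Mmp20 had 2 in all, and Mmp1b and Mmp27 never exceeded 9 in a library. A count of 0 allows up to 3 counts, or 0.105 to 0.149 CPM in adult libraries, counting error only.

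**Figure D3:**
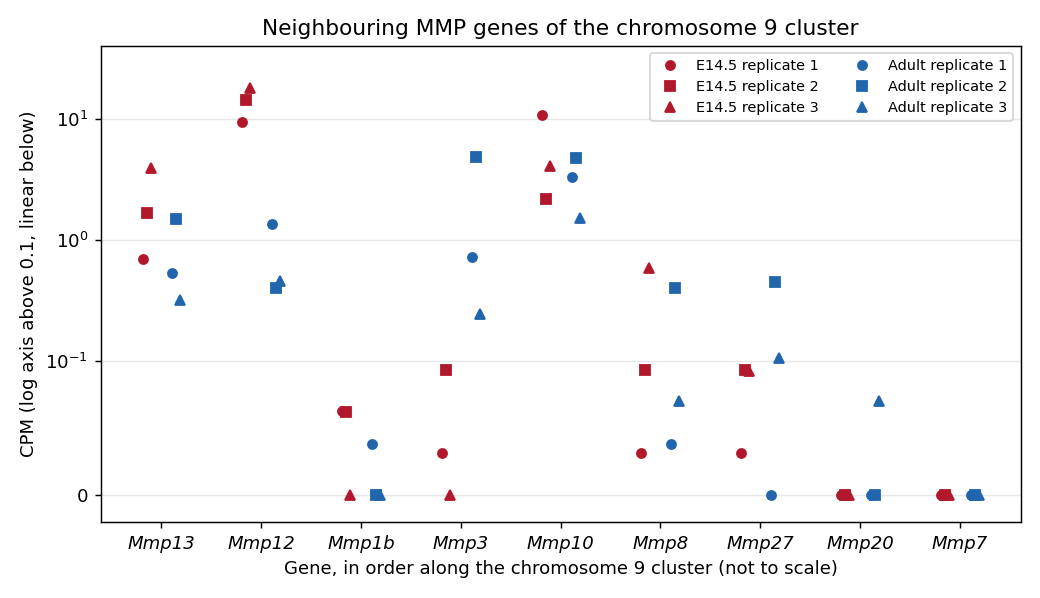
The level in CPM of 9 MMP genes of the chromosome 9 cluster, in their order along the chromosome, with 1 symbol per library. The axis is logarithmic above 0.1 CPM and linear below. Mmp12 separates the groups, Mmp3 is higher in the 3 adult libraries, and Mmp20 and Mmp7 lie at or near 0; Mmp1a, at 0 throughout, is not drawn.

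Among the gelatinases, which cleave denatured collagen and collagen IV, Mmp2 had the higher level per length, with E14.5 means of 138 RPKM (CPM per kilobase of exon) for Mmp2 and 1.46 RPKM for Mmp9. Mmp2 measured 516, 475 and 282 CPM in embryonic cultures and 328, 219 and 364 CPM in adult libraries, and the groups overlapped (log2 fold change 0.48, SE 0.29, adjusted p = 0.469, edgeR). Mmp9 measured 10.5, 0.931 and 2.50 CPM in embryonic cultures and 0.151, 0.397 and 0.281 CPM in adults. The groups did not overlap, but embryonic culture 1 stood far above the other 2 of its stage. The log2 fold change of Mmp9 was 4.07 (SE 1.03) and missed the threshold in edgeR (adjusted p = 0.126), while DESeq2 gave adjusted p = 5.56e-04. Mmp9 had 4 to 8 counts in each adult library, so it passed the filter through its E14.5 libraries. Unlike Mmp12, its order within E14.5 did not match that of the macrophage markers, whose part in its level was not tested.

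Membrane-type MMPs are anchored at the cell surface, and Mmp14 (MT1-MMP), which activates proMMP2 together with TIMP2, was the MMP of highest level per length in both groups. It measured 1123, 546 and 730 CPM in embryonic cultures and 1144, 575 and 1016 CPM in adult libraries (log2 fold change -0.19, SE 0.36, adjusted p = 0.856, edgeR). In each group culture 2 was lowest, and the groups overlapped. Mmp17, a membrane-type MMP held by a lipid anchor, measured 37.4, 7.91 and 30.9 CPM in embryonic cultures and 74.0, 33.9 and 54.6 CPM in adult libraries (log2 fold change -1.09, SE 0.58, adjusted p = 0.406, edgeR). Mmp15 (MT2-MMP) did not overlap between groups, at 9.23, 8.84 and 6.21 CPM against 5.07, 3.72 and 4.25 CPM in adults. Its log2 fold change was 0.89 (SE 0.26), with adjusted p = 0.155 in edgeR and 0.027 in DESeq2. Of the 6 genes of this class, 5 were tested and 0 passed the edgeR test. At an unadjusted p under 0.05 there was 1 of 5, near the 17.9% of all genes, with 1 in DESeq2 (10.6% of all genes) and 0 in limma-voom. Mmp16 had 15.9 to 67.2 CPM and Mmp24 0.188 to 2.98 CPM, both with overlap, and Mmp25 had at most 8 counts in a library.

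The remaining MMPs had negative values without passing the edgeR test. Mmp11, stromelysin 3, a stromal enzyme cleaved by furin before secretion, measured 24.8, 11.8 and 38.7 CPM in embryonic cultures and 52.3, 40.9 and 53.6 CPM in adult libraries. The groups lay side by side without overlap (log2 fold change -0.97, SE 0.41, adjusted p = 0.292, edgeR). Mmp19 measured 7.88, 9.46 and 21.3 CPM in embryonic cultures and 33.3, 26.6 and 33.4 CPM in adults, with no overlap. Its log2 fold change was -1.27 (SE 0.39), with adjusted p = 0.168 in edgeR and 0.022 in DESeq2, and without embryonic culture 3 it was -1.84 with adjusted p = 0.034 in edgeR. Mmp19 shares 789 exonic bases with Tmem198b on the opposite strand, and 36.2% of its stranded counts fell on that strand and were not used. Mmp23 measured 28.4, 6.67 and 18.2 CPM against 37.5, 14.5 and 42.6 CPM, with overlap (adjusted p = 0.556, edgeR). Mmp28, epilysin, had 3.91 to 24.1 CPM with overlap (adjusted p = 0.354, edgeR), and Mmp21 had no count.

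Timp3 and Timp2 were the members of highest level per length, and Timp3 was lower in every E14.5 library. Per kilobase of exon (RPKM, with exon lengths from GENCODE vM21, since no source used here names the authors' annotation), adult means were 956 for Timp3, 515 for Timp2, 245 for Timp1 and 218 for Mmp14. In E14.5 the means were 327 for Timp3, 370 for Timp2, 139 for Timp1 and 191 for Mmp14. Timp3 measured 1122, 2330 and 1178 CPM in embryonic cultures and 5475, 3218 and 4845 CPM in adult libraries. Embryonic culture 2 lay closest to the adults, of which culture 2 was the lowest. The log2 fold change was -1.55 (SE 0.36), a 2.92-fold higher adult level, which missed the threshold in edgeR (adjusted p = 0.113) and passed in DESeq2 (adjusted p = 6.79e-04). Without embryonic culture 2 it was -1.97 and passed in edgeR (adjusted p = 0.033). Within title prefixes the log2 difference was -2.29, -0.47 and -2.04.

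Timp2 measured 1233, 1831 and 1054 CPM in embryonic cultures and 2089, 1844 and 1795 CPM in adults, so embryonic culture 2 lay within the adult range (log2 fold change -0.48, SE 0.23, adjusted p = 0.357, edgeR). Timp1, the inducible inhibitor, measured 74.9, 254 and 42.8 CPM in embryonic cultures and 275, 173 and 204 CPM in adults (adjusted p = 0.599, edgeR). Embryonic culture 2 again fell among the adult libraries. The 9 mesothelial markers, none at 0, summed to 194, 883 and 174 CPM in embryonic cultures and to 1605, 599 and 809 CPM in adult libraries, which is the same order of the 6 libraries as that of Timp1. Their part in the TIMP levels was not tested. Timp4 had 1 count in all 6 libraries together.

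Summed by class, TIMPs did not overlap between the stages and the protease classes did. TIMPs summed to 2431, 4415 and 2275 CPM in embryonic cultures and to 7840, 5235 and 6845 CPM in adult libraries, with no overlap, Timp3 and Timp2 making up most of it. MMPs summed to 1853, 1147 and 1187 CPM in embryonic cultures and to 1730, 969 and 1619 CPM in adults, and ADAMTS genes to 1642, 1024 and 1338 CPM and to 1478, 1089 and 1148 CPM, with overlap in both. The ratio of the TIMP to the MMP sum was 1.31, 3.85 and 1.92 in embryonic cultures and 4.53, 5.4 and 4.23 in adult libraries. The mesothelial marker sum was likewise highest in culture 2 among the embryonic and lowest in culture 2 among the adult libraries, and its part in the TIMP sums was not tested. These sums weigh long and abundant transcripts most and are a description, with no test.

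**Figure D4:**
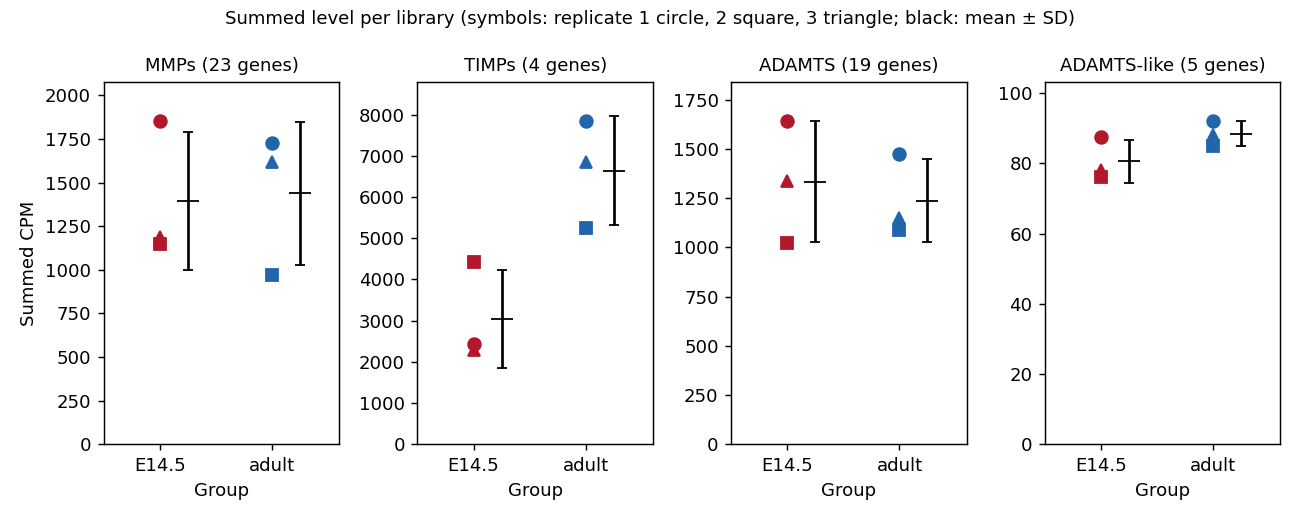
Summed CPM of the 23 MMP, 4 TIMP, 19 ADAMTS and 5 ADAMTS-like genes on the y axis, 1 symbol per library, by stage on the x axis, with the mean and SD of 3 libraries in black. The TIMP sums of E14.5 (2275 to 4415 CPM) lie below those of adults (5235 to 7840 CPM), and the other classes overlap.

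ADAMTS proteases that cleave large proteoglycans split in direction, and none passed the edgeR test (0 of 5 tested). At an unadjusted p under 0.05 there were 2 of 5, against 17.9% of all genes, with 1 in DESeq2, against 10.6%, and 0 in limma-voom. Adamts8 measured 4.75, 2.82 and 4.54 CPM in embryonic cultures and 1.40, 1.19 and 1.72 CPM in adult libraries, without overlap. Its log2 fold change was 1.48 (SE 0.35), with adjusted p = 0.112 in edgeR and 0.0031 in DESeq2. Adamts1 measured 88.8, 169 and 66.2 CPM in embryonic cultures and 228, 254 and 133 CPM in adult libraries (log2 fold change -0.93, SE 0.41, adjusted p = 0.305, edgeR). Only embryonic culture 2 reached into its adult range. Adamts5, the main aggrecanase of mouse cartilage, measured 383, 464 and 248 CPM in embryonic cultures and 555, 434 and 315 CPM in adults, with overlap (adjusted p = 0.744, edgeR). Adamts9 had 15.9 to 23.5 CPM in E14.5 against 7.73 to 14.7 CPM (adjusted p = 0.175, edgeR), and Adamts4, an aggrecanase, 4.72 to 7.85 CPM against 8.05 to 16.2 CPM (adjusted p = 0.292, edgeR). Adamts15 had at most 19 counts in a library.

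Procollagen N-propeptidases remove the amino-terminal propeptide of fibrillar procollagens, and Adamts2 was the most abundant of them per length. It measured 501, 83.4 and 471 CPM in embryonic cultures and 262, 94.0 and 262 CPM in adult libraries. Culture 2 of each stage was the low one, and the groups overlapped (log2 fold change 0.77, SE 0.71, adjusted p = 0.660, edgeR). Adamts14 measured 4.07, 2.14 and 3.21 CPM against 2.31, 6.36 and 3.87 CPM (adjusted p = 0.729, edgeR). Adamts3 had 0.695 to 3.55 CPM with overlap (adjusted p = 0.524, edgeR). Of the 3 genes, 0 passed the edgeR test, an unadjusted p under 0.05, DESeq2 or limma-voom. Col1a1, a substrate chain of these enzymes, measured 11534, 5744 and 11209 CPM in embryonic cultures and 6144, 3708 and 5984 CPM in adults, and culture 2 was lowest in both groups there too.

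Among other ADAMTS genes, Adamts12 and Adamts10 overlapped between the stages. Adamts12, which cleaves cartilage oligomeric matrix protein, measured 412, 170 and 297 CPM in embryonic cultures and 248, 142 and 243 CPM in adult libraries (log2 fold change 0.47, SE 0.37, adjusted p = 0.587, edgeR). Adamts10, which binds fibrillin, measured 166, 90.2 and 163 CPM against 105, 103 and 129 CPM (adjusted p = 0.609, edgeR). Adamts18 measured 2.35, 0.248 and 10.3 CPM in embryonic cultures and 0.681, 0.596 and 2.14 CPM in adults, with a wide overlap (log2 fold change 1.90, SE 1.23, adjusted p = 0.501, edgeR). Adamts17 measured 1.85, 0.248 and 2.29 CPM against 0.341, 0.298 and 0.562 CPM (log2 fold change 1.84, SE 0.82, adjusted p = 0.310, edgeR). In both, embryonic culture 2 was the lowest of all 6 libraries. Adamts6 (17.3 to 31.3 CPM) and Adamts7 (3.17 to 11.8 CPM) overlapped (adjusted p = 0.665 and 0.371, edgeR), and Adamts13 had 1 count in all.

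A small set of ADAMTS genes had at most 7 counts in any adult library and in embryonic culture 2, but 42 or more in the other 2 E14.5 libraries. These genes were chosen after their values were seen. Adamts19 had 146, 1 and 269 counts in embryonic cultures and 0 in every adult library, and its E14.5 mean was at least 35.1-fold higher than a floor of 3 counts per adult library. Adamts20 had 51, 7 and 42 counts in embryonic cultures and 3, 2 and 3 in adults, and Adamts16 had 60, 1 and 43 against 5, 1 and 4. The genes were left out of the test because only 2 libraries reached the filter. Without a filter their adjusted p was 0.228, 0.144 and 0.300 in edgeR. Some markers of other cells were likewise high in embryonic cultures 1 and 3 alone: the glial factor Sox10 had 125, 0 and 78 counts in embryonic cultures and 0, 1 and 1 in adults, and the pericyte gene Abcc9 had 157, 13 and 163 against 8, 5 and 5. Over the whole lists, 5 pericyte markers summed to 298, 30.2 and 106 CPM in embryonic cultures and 76.1 to 88.7 CPM in adult libraries, and 7 neural and glial markers to 57.1, 13.8 and 47.8 CPM and to 76.6 to 146 CPM. None of these markers was at 0 in all libraries, and their part in the 3 genes' levels was not tested.

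Embryonic culture 2 stood farthest from the other E14.5 libraries for 23 of the 36 tested members (63.9%), against 41.5% of all genes tested. It was the lowest of its group for 22 of the 36, against 5201 of all 13478 genes. Without it, edgeR called 6 members, Mmp12, Mmp9, Adamts16, Adamts19 and Adamts20 as higher and Timp3 as lower, and 3.42% of all genes. Adamts16, Adamts19 and Adamts20 reached the filter in no adult library and Mmp9 in 1, so these had to differ in order to be tested, and no share is read from the count. Adult culture 2, which carries the same title prefix as embryonic culture 2, was likewise farthest for 20 of the 36 members (55.6%), against 44.6% of all genes. It too was the lowest of its group for 22 of the 36, against 5212 of all 13478 genes. That library had the highest endothelial marker sum (1939 CPM) and the lowest depth. The part of either in the members' values was not tested.

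**Figure D5:**
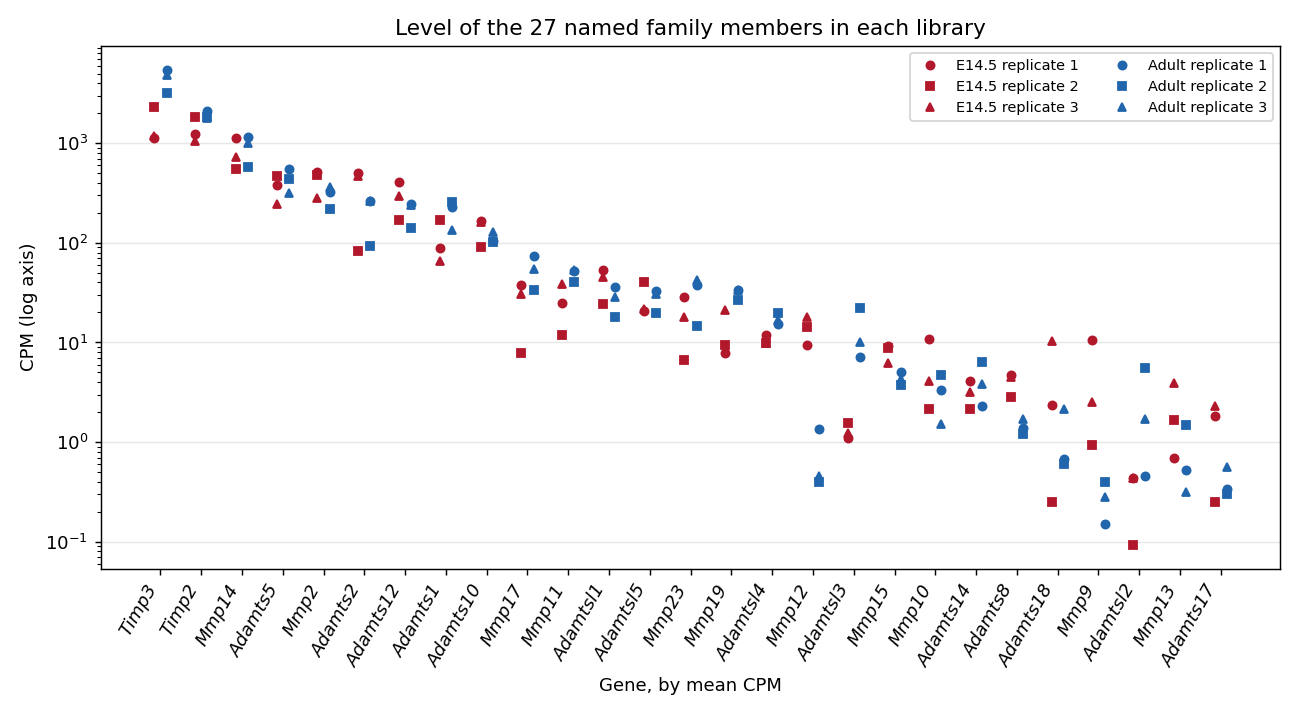
CPM on a log axis for 27 members named by rule, ordered by mean level, with E14.5 libraries in red and adult libraries in blue; circles, squares and triangles are replicates 1, 2 and 3. Mmp12 and Adamtsl3 separate the groups widely, and red squares (embryonic culture 2) often lie apart from the other red symbols.

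ADAMTS-like genes, whose products bind fibrillin microfibrils or other matrix, held the only member that fell. Adamtsl3 measured 1.09, 1.55 and 1.24 CPM in E14.5 (35, 50 and 40 counts) and 7.08, 22.1 and 10.1 CPM in adult libraries (187, 445 and 286 counts). The groups lay far apart, and adult culture 2 was the highest. The means were 1.29 ± 0.234 and 13.1 ± 7.95 CPM (SD, n = 3 each), a 10.1-fold higher adult level. By edgeR it had a log2 fold change of -3.33 (SE 0.50, adjusted p = 0.042). The gene lies on chromosome 7 of GRCm38 from 82335694 to 82614450 on the plus strand. Within title prefixes the log2 difference was -2.69, -3.83 and -3.02.

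The call of Adamtsl3 rested on all 6 libraries: adjusted p was 0.052 to 0.181 in edgeR when any 1 was left out, with log2 fold changes from -3.63 to -2.73. Endothelial markers also were highest in adult culture 2. In adult culture 1 the endothelial sum was 30.7 CPM and Adamtsl3 7.08 CPM, and in E14.5 they were 15.4 to 42.2 CPM and 1.09 to 1.55 CPM. Without adult cultures 2 and 3 its log2 value was -2.45 (adjusted p = 0.483, edgeR), where the lone adult library is assumed to vary like the others. Of the 9 fibroblast markers, edgeR called Pdgfra alone, as lower in E14.5 (adjusted p = 0.036), and their sum overlapped between stages. Pdgfra measured 2.47, 3.85 and 4.45 CPM in embryonic cultures and 29.5, 81.0 and 31.7 CPM in adults, highest in adult culture 2 as well. The part of endothelial cells or of fibroblasts in the Adamtsl3 result was not tested.

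Adamtsl2 and Adamtsl4 also had lower levels in all E14.5 libraries without passing the edgeR test. Adamtsl2 measured 0.438, 0.0931 and 0.433 CPM in embryonic cultures and 0.454, 5.51 and 1.69 CPM in adults. It was nearly level between embryonic culture 1 (14 counts) and adult culture 1 (12 counts). Its log2 fold change of -2.96 (SE 1.03, adjusted p = 0.211 in edgeR and 0.039 in DESeq2) was -0.51 without adult cultures 2 and 3, the libraries with endothelial sums of 1939 and 429 CPM, whose part in it was not tested. Adamtsl4 measured 11.9, 9.84 and 9.95 CPM against 15.4, 19.6 and 16.8 CPM, a tight separation (log2 fold change -0.71, SE 0.17, adjusted p = 0.116 in edgeR and 0.0070 in DESeq2). Adamtsl1 measured 53.2, 24.5 and 45.1 CPM against 36.2, 18.0 and 28.8 CPM and Adamtsl5 20.9, 40.03 and 21.5 CPM against 32.9, 19.8 and 30.8 CPM, and both overlapped (adjusted p = 0.498 and 0.983, edgeR).

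Genes that act with these proteases were taken from 10 lists of activators, inhibitors, related proteases, substrates and inducers, 93 genes of which 78 were tested. None passed the edgeR test in either direction, and 26 had an unadjusted p under 0.05 (33.3%, against 17.9% of all genes). DESeq2 called 16 of the 78 (against 10.6% of all genes) and limma-voom 0 (against 1.02%). Inflammatory inducers had 7 of 8 at an unadjusted p under 0.05, split into 3 positive (Tnf, Il1a and Il1b) and 4 negative values. Tnf and Il1b had at most 6 counts in any adult library and reached the filter through E14.5 libraries alone. These genes had to differ in order to be tested, and both count in the 7 and in the 26, so no share is read from the 7. Tnf measured 0.344, 1.15 and 4.02 CPM in embryonic cultures and 0.227, 0.0993 and 0.141 CPM in adult libraries, the same order as that of the macrophage markers in E14.5, and Il1b too was highest in embryonic culture 3. The part of macrophages in these values was not tested. At the same p, broad inhibitors and matrix partners had 4 of 9 and fibrillar procollagens 4 of 7, while AP-1 factors had 0 of 7, with a median log2 fold change of -0.11. The lowest adjusted p was 0.062.

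The gene of highest CPM in each list did not pass the test. Thbs1, for a matrix protein that binds several MMPs, averaged 11580 ± 3879 CPM in embryonic cultures and 16793 ± 1701 CPM in adults (SD, n = 3 each; adjusted p = 0.428, edgeR). Cav1, for the caveolar coat protein, averaged 1794 ± 687 and 1043 ± 116 CPM (adjusted p = 0.228, edgeR). Fn1, a substrate of many MMPs, averaged 14881 ± 875 and 11863 ± 2259 CPM (adjusted p = 0.488, edgeR). Bmp1, for the procollagen C-proteinase, Adam9, Ctsd, Fosl2 and Tnfrsf1a had adjusted p of 0.411, 0.718, 0.245, 0.307 and 0.259, and Col1a1 of 0.271 (edgeR).

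The partners with an adjusted p under 0.1 were chosen after their values were seen. Vcan, for versican, a substrate of several ADAMTS proteases, measured 118, 85.3 and 56.8 CPM in embryonic cultures and 31.3, 26.7 and 26.97 CPM in adults, without overlap (log2 fold change 1.61, SE 0.27, adjusted p = 0.062, edgeR). Il1r1, the interleukin 1 receptor, measured 27.1, 18.4 and 14.6 CPM against 88.2, 51.1 and 99.6 CPM (log2 fold change -1.99, SE 0.33, adjusted p = 0.062, edgeR). Bgn, for the small proteoglycan biglycan, measured 802, 769 and 1517 CPM against 4803, 3124 and 4942 CPM (log2 fold change -2.06, SE 0.35, adjusted p = 0.062, edgeR). Pcsk6, for a proprotein convertase, measured 336, 325 and 335 CPM against 607, 442 and 603 CPM (log2 fold change -0.73, SE 0.16, adjusted p = 0.097, edgeR). Each of these kept all E14.5 libraries on one side of the adult ones.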

How the data were processed

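RNA from 3 E14.5 and 3 adult cultures was sequenced from stranded poly(A) libraries as single 75 bp reads, per the labels' protocols. For each library the authors deposited unnormalized counts of reads per gene, aligned with STAR to mm10, per the submitters' processing notes; version, annotation and counting rule remain not given in the sources used here. Reverse-strand counts were used, as forward-strand counts made up 1.33% to 1.69% of stranded gene counts. Rows for unassigned reads (17.4% to 19.8% of reads) were left out.

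In R 4.3.3, edgeR 4.0.16 fitted all genes kept by filterByExpr, with TMM scaling and the robust quasi-likelihood test, E14.5 against adult. Adjusted p-values (Benjamini-Hochberg) run over all genes tested. SEs are the log2 fold change over the square root of F and so approximate. DESeq2 1.42.0 and limma-voom (limma 3.58.1) were alternatives. The steps were tested on simulated data. The title prefix is shared by 1 library of each stage. Deviations from the stage means correlated at -0.089, -0.239 and -0.073 within a prefix and at -0.159 to 0.221 across prefixes. These correlations cannot tell whether a prefix marks a pair, so the prefix block was fitted only as an alternative. Named members are those past the test, the 5 largest values in each direction, the 2 most abundant of each role group and those that DESeq2 called without overlap; from the other lists, genes past the test and the most abundant. Members and lists were chosen with earlier results of these data known. A gene that the rule took is not reported here.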

Additional observations from a re-analysis of the deposited data

Results flagged for a closer look

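Mmp24 (MT5-MMP) showed a signal on the strand that was not used for the comparison. Its forward-strand counts summed to 4096 over the 6 libraries, from 523 in adult culture 2 to 840 in embryonic culture 2, against 206 reverse-strand counts. They were above the reverse-strand count in every library. Mmp24 shares 637 exonic bases with BC029722 on the opposite strand in GENCODE vM21, and the part of that gene in the counts was not tested. On the reverse strand Mmp24 measured 0.188, 2.98 and 0.340 CPM in embryonic cultures and 1.17, 1.29 and 1.27 CPM in adult libraries.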

How the results depend on the processing

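The number of genes called, 146 with all libraries, was 1427 with DESeq2, 2 with the title prefix as a replicate block in edgeR, 1208 with that block in DESeq2, and 2 at an adjusted p of 0.01. Leaving out 1 library gave 3 to 471 genes: 3, 471 and 111 without embryonic culture 1, 2 or 3, and 38, 46 and 3 without adult culture 1, 2 or 3. Leaving out adult culture 2 together with embryonic culture 3 gave 36, and leaving out both adult cultures 2 and 3 gave 0 (842 at an unadjusted p under 0.05, edgeR). The share of calls that were higher in E14.5 was 22.6% with all libraries, 48.4% with DESeq2 and 40.8% without embryonic culture 2. The number of members called, 2, was 9 with DESeq2, 10 with the block in DESeq2, 0 with the block in edgeR and 1 with upper-quartile scaling, library size alone or limma-voom. At an unadjusted p under 0.05 the edgeR block had 16 of 36 members and 1895 of 13478 genes. The number called was 0 at an adjusted p of 0.01, where edgeR had 10 of 36 members and 2413 of 13478 genes at an unadjusted p under 0.05. It was 0 without adult culture 2 and embryonic culture 3 together. There edgeR had 12 of 36 members and 2071 of 13534 genes at an unadjusted p under 0.05. The number of members called ranged from 0 to 6 when 1 library was left out, and was 0 without embryonic culture 1, adult culture 2 or adult culture 3. The prefix block gave adjusted p of 0.146 for Mmp12 and 0.094 for Adamtsl3 in edgeR. On the log2 scale Mmp12 stayed between 3.33 and 5.00 and Adamtsl3 between -3.63 and -2.45 in every alternative run. Of the 27 named members, 22 kept their direction. With libraries left out, Adamts14 ranged from -0.70 to 0.44 (0.020 without adult culture 2), Adamts18 from -0.14 to 2.74, Mmp10 from -0.028 to 1.42, Mmp14 from -0.52 to 0.025 and Adamtsl5 from -0.39 to 0.14. Adamtsl5 also turned with upper-quartile scaling (0.020) and library size alone (0.035). The cause of these changes was not tested.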

Other observations

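Adamts1 and Adamts5 lie next to each other on the minus strand of chromosome 16 of GRCm38, from 85793827 to 85803113 and from 85856173 to 85901828. In embryonic cultures 1 to 3 Adamts1 measured 88.8, 169 and 66.2 CPM and Adamts5 383, 464 and 248 CPM, so culture 2 was highest and culture 3 lowest for both. In adult cultures 1 to 3 the values were 228, 254 and 133 CPM and 555, 434 and 315 CPM, and culture 3 was lowest for both.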
